A study of Homo sapiens with 3 samples.

Results

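Excision, mismatch and crosslink repair genes were followed in an oral squamous cell carcinoma (OSCC) line and in a pair of drug-resistant lines derived from it. The set was a list of 43 gene symbols chosen by function, with earlier results of these data known. All 43 were found among the 19220 genes of the count table, and all 43 passed the filter on low counts, which asked for 10 counts on average across the libraries. Parental CAL27 cells, an established line from a squamous carcinoma of the tongue labelled WT, were grown without drug. CAL27/5FU cells, labelled 5-fluorouracil resistant, were kept in 10 μM 5-fluorouracil (5FU), a pyrimidine analogue. CAL27/OXA cells, labelled oxaliplatin resistant, were kept in 10 μM oxaliplatin (OXA), a platinum drug that crosslinks DNA. All 3 lines were kept in the same serum-supplemented medium. The study made its 5FU-resistant cells by raising the drug stepwise. The sources do not say how CAL27/OXA was derived or whether either resistant line is 1 clone. For each line, 1 RNA-seq library of total RNA was used, so the differences below cannot be set against replicates, and p-values are not given.

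Cells remove damaged bases by several routes. Base excision repair takes out single altered bases such as uracil, nucleotide excision repair cuts out a short stretch around a bulky lesion, and mismatch repair corrects errors left by replication. Crosslinks between the strands are opened by the Fanconi pathway and completed by homologous recombination and by translesion polymerases, which copy past damage. 5FU causes uracil and its fluorinated analogue to be built into DNA, substrates of base excision and mismatch repair, and oxaliplatin leaves platinum adducts, substrates of nucleotide excision and crosslink repair. The list held 11 genes of nucleotide excision, 8 of base excision, 4 of mismatch repair, 10 of the Fanconi pathway, 7 of recombination and 3 of translesion synthesis.

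The libraries held 37297713 to 43455488 counts, and 0.259%, 0.298% and 0.324% of the counts of CAL27, CAL27/5FU and CAL27/OXA lay on the 43 repair genes. Of the squamous epithelial markers, KRT5 had 286124, 46083 and 72716 counts and TP63 had 23645, 9759 and 29498 counts in CAL27, CAL27/5FU and CAL27/OXA. CDH1 had 74.5, 75.9 and 73.0 FPKM and EPCAM had 131, 194 and 147 FPKM, so the lower sums below came mostly from the keratins. The immune marker PTPRC had 2, 0 and 0 counts, CD68 had 3143, 1827 and 5055, and the endothelial markers PECAM1 and CDH5 had 13, 6 and 11 counts and 43, 338 and 163 counts. In the same order, summed FPKM was 5947, 1368 and 1588 for the 7 squamous markers, 41.6, 27.1 and 64.2 for the 3 immune markers, 0.318, 2.22 and 0.962 for the 2 endothelial markers and 7.37, 11.6 and 14.6 for the 4 fibroblast markers. CD68 alone had 41.4, 27.0 and 64.1 FPKM, so the immune sums came almost wholly from that gene. The part of these differences in the values of the repair genes was not tested. In these bulk libraries, fewer cells of a type and less RNA per cell cannot be told apart. Counts were turned into CPM, counts relative to library size after TMM scaling, with factors of 0.932, 1.05 and 1.02 in the same order. Ratios are log2 ratios of CPM, given with an exact 95% interval in brackets that covers counting error only.

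The repair genes differed widely in level and kept their order at the top. Per length, as deposited FPKM values, APEX1 was the highest member with 275, 312 and 358 in CAL27, CAL27/5FU and CAL27/OXA. It encodes the endonuclease that cuts DNA at sites without a base. PARP1, the sensor of strand breaks, followed with 106, 120 and 145 FPKM, and DDB1, a subunit of the complex that recognizes ultraviolet damage, with 76.1, 69.8 and 65.4 FPKM. MSH6 and UNG took the next places, and these 5 genes held the ranks 1 to 5 in all 3 libraries. The median member had 9.20, 12.5 and 12.8 FPKM, beside 8.54, 9.48 and 9.18 over all tested genes. Among the 42 pairs of neighbours in the order of CAL27, 31 had overlapping counting intervals, so most ranks below the top are not set apart by their counts.

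**Figure D1:**
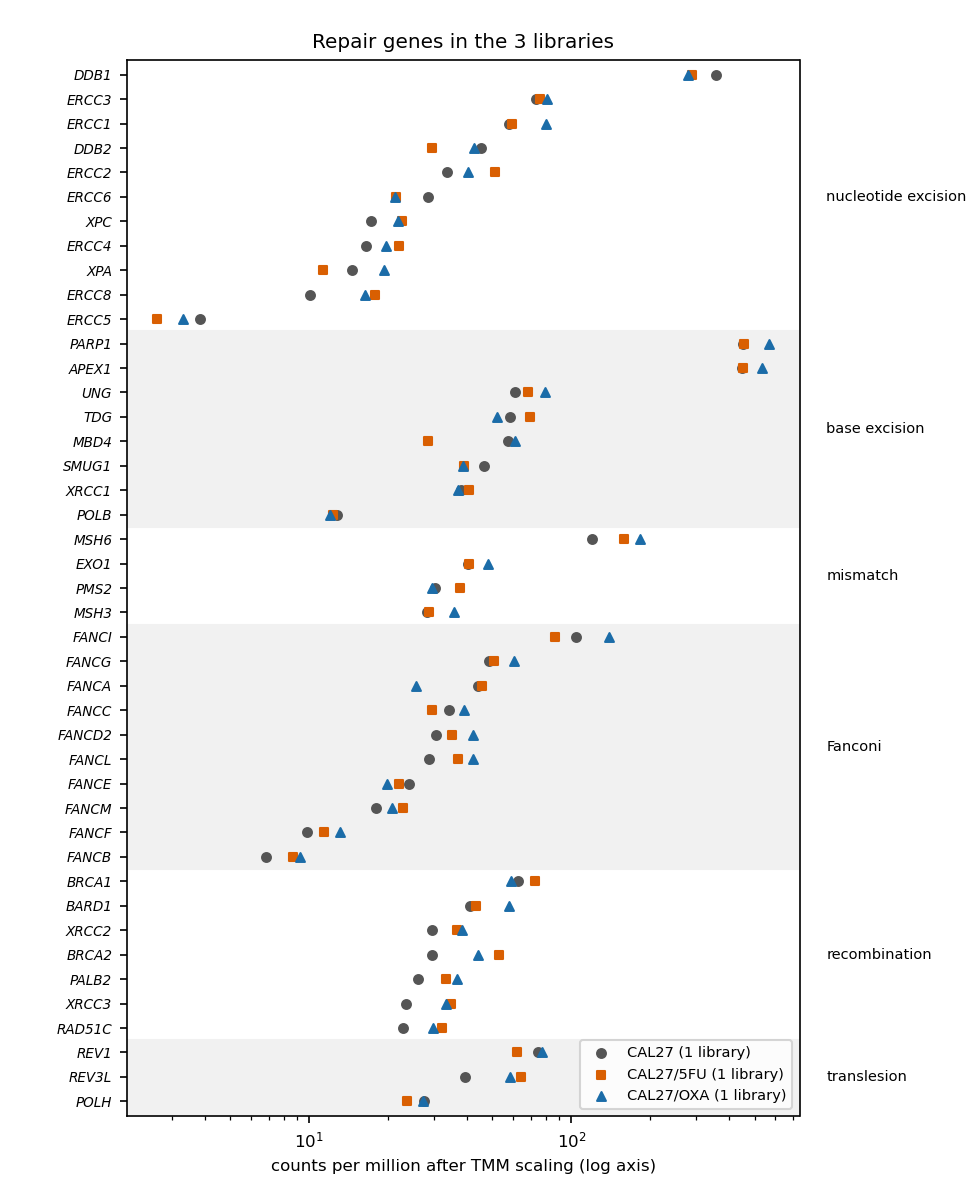
Level of each repair gene in the 3 libraries, as CPM on a log axis, grouped by repair route and ordered by the level in CAL27. Each point is 1 library without an error bar; MBD4 stands apart in CAL27/5FU at 28.3 CPM against 57.3 and 61.1, and FANCA in CAL27/OXA at 25.6 CPM against 43.8 and 45.5.

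The question of the series was which genes differ between parental and resistant cells. For the repair genes, nearly all ratios stayed within 2-fold. In CAL27/5FU against CAL27, 0 of the 43 members were more than 2-fold higher and 1, MBD4, was more than 2-fold lower, while 8.46% of all 13676 tested genes were higher and 6.72% lower, 15.2% in all. In CAL27/OXA against CAL27, 0 members were past 2-fold, beside 6.54% of all tested genes that were higher and 9.28% that were lower, 15.8% in all. Between the resistant lines, CAL27/OXA against CAL27/5FU, 1 member, again MBD4, was more than 2-fold higher and 0 were lower, beside 4.18% and 8.38% of all tested genes, 12.6% in all. At 1.5-fold, 4 members were higher and 2 lower in CAL27/5FU than in CAL27, beside 15.2% and 14.0% of all tested genes, 29.3% in all. In CAL27/OXA against CAL27 the numbers were 3 higher and 1 lower, beside 14.1% and 17.0%, 31.1% in all. In CAL27/OXA against CAL27/5FU they were 3 higher and 1 lower, beside 10.2% and 15.1%, 25.3% in all. The share of members past either limit was thus under that of all tested genes in each comparison, which also hold genes with far fewer counts.

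Small positive ratios were common among the members. In CAL27/5FU, 30 of 43 had a ratio above 0, beside 49.7% of all tested genes, with a median of 0.08 against -0.0035 over all tested genes. In CAL27/OXA, 30 of 43 were above 0, beside 50.5%, and the median was 0.27 against 0.0055. These comparisons share the CAL27 library. In CAL27/OXA against CAL27/5FU, 24 members were above 0, beside 50.8%, with a median of 0.09. With library totals in place of TMM, the median over all tested genes became 0.17 in CAL27/5FU and 0.14 in CAL27/OXA and 32 and 36 members were above 0. The share of higher genes among all genes past 2-fold in CAL27/5FU went from 55.7% to 67.2%.

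**Figure D2:**
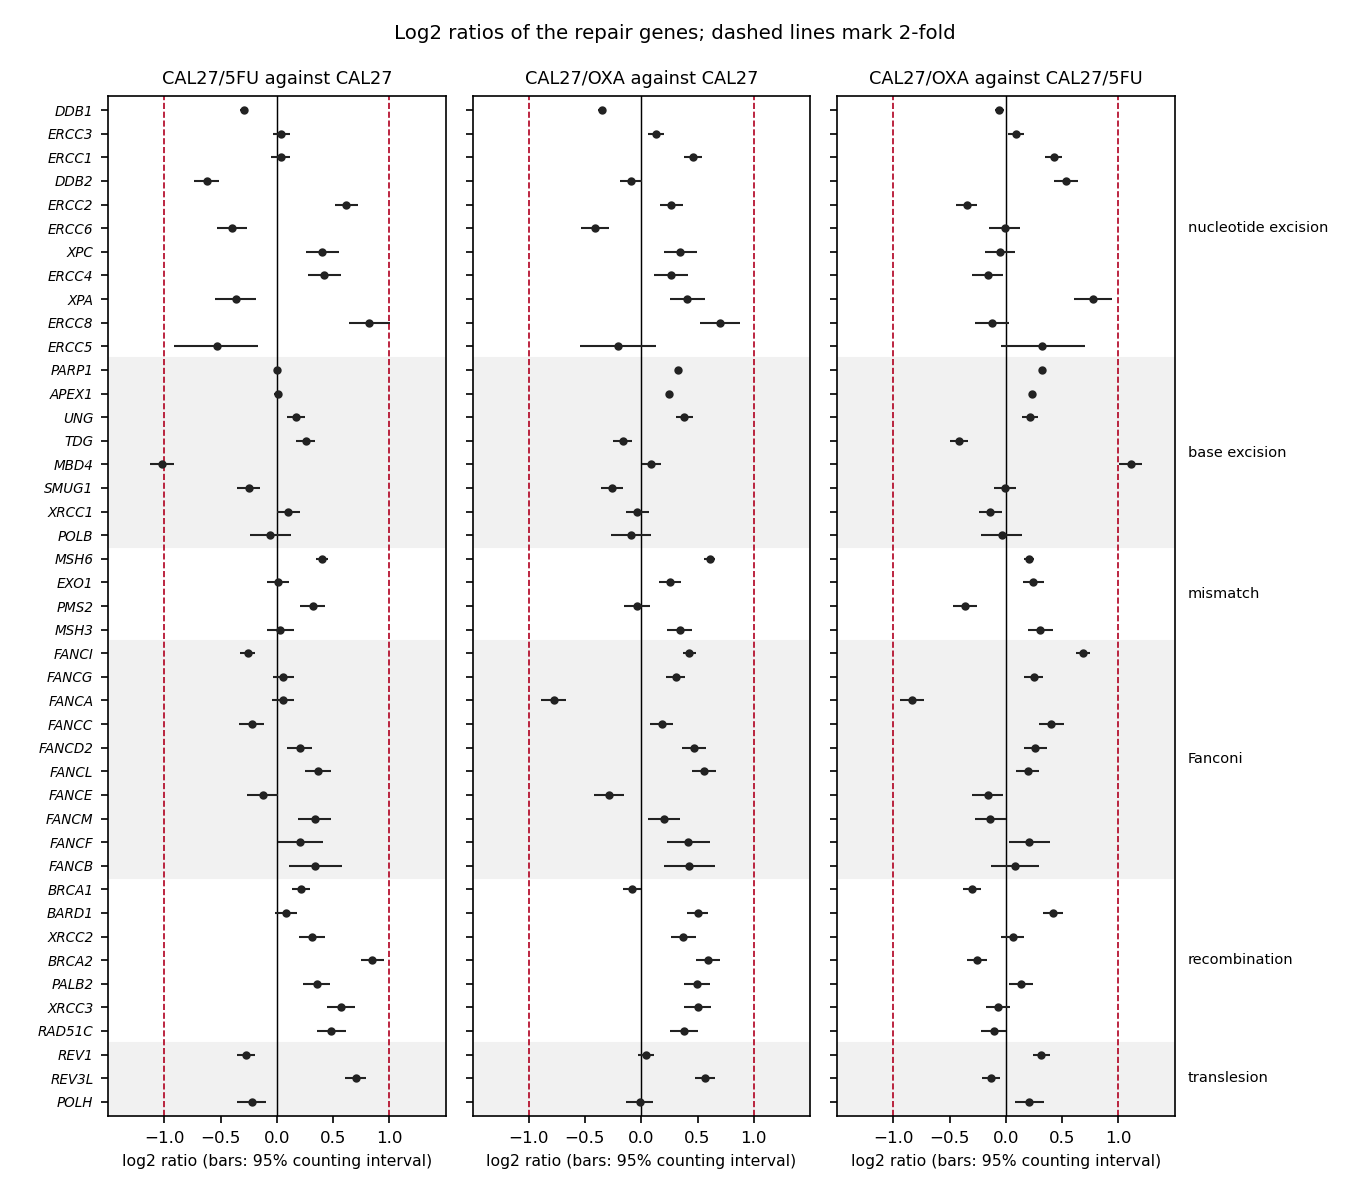
Log2 ratio of each repair gene in the 3 comparisons, with exact 95% counting intervals as bars and dashed lines at 2-fold. MBD4 reaches -1.02 in CAL27/5FU against CAL27 and 1.11 in CAL27/OXA against CAL27/5FU, FANCA lies at -0.78 in CAL27/OXA against CAL27, and all 7 recombination genes are right of 0 in the left panel.

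Base excision repair held the largest difference of the set. MBD4, a glycosylase that removes thymine and uracil mispaired with guanine and also acts on 5-fluorouracil in DNA, had 2233, 1106 and 2712 counts in CAL27, CAL27/5FU and CAL27/OXA. These are 57.3, 28.3 and 61.1 CPM, so that CAL27/5FU was low and the other two libraries were close to each other. MBD4 fell by 1.02 on the log2 scale in CAL27/5FU against CAL27 (interval -1.13 to -0.92), a value that sits on the 2-fold limit and was -0.85 under scaling by total counts. It was 1.11 in CAL27/OXA against CAL27/5FU (1.01 to 1.21), past 2-fold in every setting tried. Against CAL27, the ratio of CAL27/OXA was 0.09 (0.01 to 0.17).

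The other uracil and thymine glycosylases did not share this pattern. UNG, the main uracil-DNA glycosylase, had 2376, 2685 and 3536 counts in CAL27, CAL27/5FU and CAL27/OXA, with ratios to CAL27 of 0.17 and 0.38. TDG, thymine-DNA glycosylase, had 2266, 2719 and 2309 counts and ratios of 0.26 and -0.16. SMUG1, which removes uracil and its oxidized forms, had 1802, 1521 and 1719 counts and ratios of -0.25 and -0.26. None of these 3 genes was past 1.5-fold in any comparison. Downstream of the glycosylases, APEX1 had 17501, 17694 and 23649 counts and PARP1 had 17620, 17776 and 25199 counts. Their ratios to CAL27 were 0.01 and 0.01 in CAL27/5FU and 0.24 and 0.33 in CAL27/OXA. XRCC1, the scaffold of single-strand break repair, and POLB, the gap-filling polymerase, had ratios between -0.09 and 0.10. Over the 8 genes, the medians were 0.01 for CAL27/5FU and 0.03 for CAL27/OXA.

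The position of MBD4 in GRCh38 is chromosome 3, 129430944 to 129440179, minus strand, and its neighbours had like ratios. Of the 10 nearest tested genes, 5 on each side over 1.62 Mb, 9 were more than 1.5-fold lower in CAL27/5FU than in CAL27, and their median ratio was -1.003. The share of all tested genes lower by that much was 14.0%. On the side of lower coordinates, CNBP had 13104, 7498 and 17582 counts in CAL27, CAL27/5FU and CAL27/OXA, COPG1 had 7939, 3845 and 8241, and H1FX had 4940, 2430 and 6552. On the other side, TMCC1 had 857, 400 and 1139 counts, and ALG1L2, with 45, 54 and 51 counts, was the 1 gene of the 10 that was not lower. In CAL27/OXA against CAL27 the median of the same 10 genes was 0.19, and in CAL27/OXA against CAL27/5FU it was 1.06, beside 1.11 for MBD4. Within 10 Mb, 98 of 118 tested genes had a ratio below 0 in CAL27/5FU, and 34 were more than 2-fold lower. The part of this neighbourhood in the value of MBD4 was not tested.

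The start of MBD4 faces that of IFT122, which is 1 of its 10 nearest genes given above. A facing start within 1000 bases was found for 16 of the 43 members. Some of these pairs had ratios of different sign in CAL27/5FU. In GENCODE, IFT122, a component of ciliary transport on the opposite strand, begins 143 bases inside the first base of MBD4, and 4.3% of the exonic bases of MBD4 are shared with it. IFT122 had 1104, 479 and 1041 counts, with ratios of -1.21 in CAL27/5FU and -0.27 in CAL27/OXA. Whether counting used strand is not stated, so reads from the shared bases cannot be assigned. In all, 18 of the 43 members share exonic bases with another protein-coding gene, 8 of them over 10% of their own. These 8 include FANCL, MSH6, FANCF and REV1, with 18.7%, 16.2%, 11.3% and 11.0%. Most of the region between the RefSeq starts of MBD4 and IFT122 is shown because both genes had their lowest level in CAL27/5FU. The stretch comes from RefSeq (GRCh38.p14), 5′ to 3′ on the strand of MBD4, from 250 bases before the RefSeq start to 20 bases after. RefSeq starts MBD4 at 129439948, 231 bases inside the GENCODE gene, so most of the stretch lies within MBD4 as GENCODE draws it. RefSeq starts IFT122 at 129440224, 276 bases away on the other strand. Capitals mark 2 CCAAT boxes, read here on the other strand as ATTGG, which begin 129 and 80 bases before the RefSeq start of MBD4.
MBD4 (chr3:129439929-129440198, minus strand): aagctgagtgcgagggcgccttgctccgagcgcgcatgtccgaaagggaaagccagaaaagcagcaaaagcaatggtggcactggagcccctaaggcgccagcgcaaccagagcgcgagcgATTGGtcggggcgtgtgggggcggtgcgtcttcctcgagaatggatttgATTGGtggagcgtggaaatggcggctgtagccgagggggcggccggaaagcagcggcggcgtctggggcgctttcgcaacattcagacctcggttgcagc

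**Figure D3:**
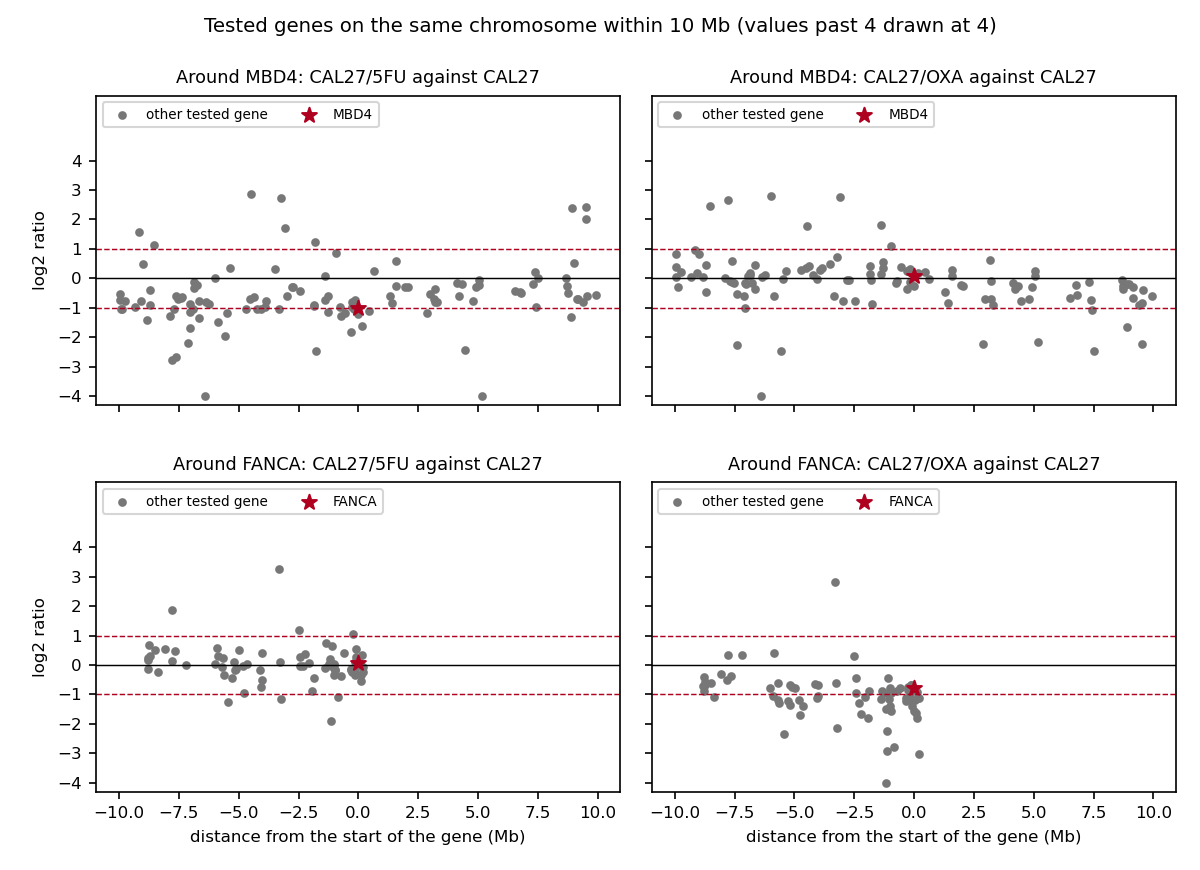
Log2 ratios of the tested genes within 10 Mb of MBD4 and of FANCA, plotted against the distance from the start of the gene, with dashed lines at 2-fold and ratios past 4 drawn at 4. Around MBD4, 98 of 118 genes lie below 0 in CAL27/5FU and 67 of 118 in CAL27/OXA; around FANCA, 37 of 77 lie below 0 in CAL27/5FU and 72 of 77 in CAL27/OXA.

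In the Fanconi group, FANCA had the lowest ratio in CAL27/OXA. FANCA, a subunit of the core complex that attaches ubiquitin at a crosslink, had 1708, 1781 and 1136 counts in CAL27, CAL27/5FU and CAL27/OXA, or 43.8, 45.5 and 25.6 CPM. The library of CAL27/OXA was low, and the other two were close together. The ratio was -0.78 (-0.89 to -0.67) in CAL27/OXA against CAL27 and -0.83 (-0.94 to -0.72) against CAL27/5FU, and both intervals lay wholly past 1.5-fold. In CAL27/5FU against CAL27 it was 0.05 (-0.04 to 0.15).

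FANCA lies near the end of the long arm of chromosome 16, on the minus strand from 89737549 to 89816657, and here too the neighbours had like ratios. All 10 nearest tested genes, within 0.310 Mb, were more than 1.5-fold lower in CAL27/OXA than in CAL27, with a median of -1.13, beside 17.0% of all tested genes. In CAL27/5FU the median of the same genes was 0.03. SPIRE2 had 780, 778 and 298 counts in CAL27, CAL27/5FU and CAL27/OXA, TCF25 had 3628, 3820 and 1827, and TUBB3 had 2547, 2024 and 835. ZNF276, on the opposite strand, shares 23.6% of the exonic bases of FANCA and had 921, 1115 and 572 counts. The replication licensing gene CDT1, which starts 1.01 Mb away, had 2941, 3005 and 1937 counts. Within 10 Mb, 72 of 77 tested genes were below 0 in CAL27/OXA and 38 were more than 2-fold lower. The part of this neighbourhood in the value of FANCA was not tested.

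The promoter of FANCA is shown beside that of MBD4 as the other locus where a member and its neighbours had like ratios. Capitals mark a word of the E2F site, GCGGCAAA, read on the other strand, which begins 172 bases before the RefSeq start, 10 bases inside that of GENCODE, and a CCAAT box that begins 33 bases before it.
FANCA (chr16:89816628-89816897, minus strand): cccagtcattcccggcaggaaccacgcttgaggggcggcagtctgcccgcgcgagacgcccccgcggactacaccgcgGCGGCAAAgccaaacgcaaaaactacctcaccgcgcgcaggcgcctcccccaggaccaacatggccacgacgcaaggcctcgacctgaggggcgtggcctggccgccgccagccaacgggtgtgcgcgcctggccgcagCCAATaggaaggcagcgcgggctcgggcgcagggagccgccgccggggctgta

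Most of the remaining Fanconi genes had modest positive ratios in CAL27/OXA. FANCI, which forms the pair that is ubiquitinated at a crosslink together with FANCD2, had 4044, 3400 and 6205 counts in CAL27, CAL27/5FU and CAL27/OXA, or 103.8, 86.9 and 139.7 CPM. The order was thus CAL27/5FU, CAL27 and CAL27/OXA. Its ratio was -0.26 (-0.32 to -0.19) in CAL27/5FU and 0.43 (0.37 to 0.49) in CAL27/OXA, each against CAL27. Between the resistant lines it was 0.69 (0.63 to 0.75), wholly past 1.5-fold. FANCD2, which has pseudogene copies and so uncertain counts, had 1190, 1377 and 1875 counts and ratios to CAL27 of 0.20 and 0.47, so FANCI and FANCD2 had ratios of different sign in CAL27/5FU. FANCL, the ubiquitin ligase of the core complex, had 1117, 1446 and 1877 counts and ratios of 0.37 and 0.56. It shares 18.7% of its exonic bases with VRK2 on the opposite strand, so its counts are uncertain.

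Within the core complex, FANCB, FANCC, FANCF and FANCG had ratios in CAL27/OXA against CAL27 of 0.43, 0.18, 0.42 and 0.31, FANCE had -0.28, and the DNA translocase FANCM had 0.20. Without regard to size, 8 of the 10 Fanconi genes were above 0 in CAL27/OXA and 7 in CAL27/5FU, with medians of 0.36 and 0.13. Of all tested genes, 50.5% and 49.7% were above 0. In CAL27/5FU, FANCC had a ratio of -0.22, and FANCE, with 937, 863 and 877 counts, had -0.13, a value that was positive under total counts and with FPKM values.

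The recombination genes had nearly all ratios above 0. In CAL27/5FU all 7 genes were above 0, beside 49.7% of all tested genes, with a median of 0.36. In CAL27/OXA 6 of 7 were, beside 50.5%, with a median of 0.49. The exception was BRCA1 at -0.09, which was positive under total counts and with FPKM values. BRCA2, a central mediator of homologous recombination, had 1141, 2066 and 1964 counts in CAL27, CAL27/5FU and CAL27/OXA, or 29.3, 52.8 and 44.2 CPM. CAL27 was low, and the resistant lines lay closer together. The ratio of BRCA2 was 0.85 (0.75 to 0.95) in CAL27/5FU, the highest of the 43 members, and 0.59 (0.49 to 0.70) in CAL27/OXA. Scaled by total counts, the first value was 1.02, just past 2-fold.

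Partners of BRCA2 had smaller ratios in CAL27/5FU, with intervals wholly below that of BRCA2. In CAL27/OXA, the intervals of PALB2, BARD1, RAD51C and XRCC3 overlapped that of BRCA2, and those of BRCA1 and XRCC2 lay below it. PALB2, which links BRCA1 to BRCA2, had 1014, 1304 and 1630 counts in CAL27, CAL27/5FU and CAL27/OXA and ratios to CAL27 of 0.36 and 0.49. BARD1, which forms a ubiquitin ligase with BRCA1, had 1593, 1694 and 2572 counts and ratios of 0.08 (-0.018 to 0.181) and 0.50. BRCA1 itself had 2430, 2832 and 2611 counts and a ratio of 0.21 in CAL27/5FU. RAD51C, XRCC2 and XRCC3, which assist the early steps of recombination, had ratios of 0.49, 0.31 and 0.57 in CAL27/5FU and 0.38, 0.37 and 0.50 in CAL27/OXA. RAD51C, the highest of the group per length in CAL27, had 890, 1253 and 1321 counts. XRCC3 shares 76.7% of its annotated exonic bases with KLC1 on the opposite strand, so its counts are uncertain. Directly between the resistant lines, the median of the 7 genes was -0.07.

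Fanconi and recombination genes are known to be transcribed most in dividing cells, so a list of 24 replication and mitosis genes was set beside them. This list had a median of -0.27 in CAL27/5FU, with 6 genes above 0 and 18 below, and of -0.06 in CAL27/OXA, with 10 above and 14 below. The proliferation marker MKI67 had 21836, 15770 and 21782 counts in CAL27, CAL27/5FU and CAL27/OXA and ratios to CAL27 of -0.48 and -0.19. By total counts the medians of the list were -0.100 in CAL27/5FU and 0.078 in CAL27/OXA, so the sign in CAL27/OXA depends on the scaling. The part of these genes in the ratios of the Fanconi and recombination genes was not tested. MCM2, a helicase subunit on chromosome 3 at 1.84 Mb from MBD4 by their starts, had 9955, 5350 and 15252 counts, and its ratio in CAL27/5FU was -0.90.

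Nucleotide excision repair held ratios in both directions. ERCC8, a factor that couples repair to stalled transcription, had 391, 696 and 725 counts in CAL27, CAL27/5FU and CAL27/OXA, or 10.0, 17.8 and 16.3 CPM. CAL27 was low and the resistant lines were alike, with an interval of -0.28 to 0.03 between them. Its ratios to CAL27 were 0.82 (0.64 to 1.01) and 0.70 (0.52 to 0.88). ERCC6, its partner in the same step, went the other way, with 1101, 839 and 945 counts and ratios of -0.40 and -0.41. NDUFAF2, which starts 56 bases from ERCC8 on the opposite strand, had ratios of 0.28 and 0.30.

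XPA, the scaffold that checks the damaged strand, had 565, 441 and 857 counts in CAL27, CAL27/5FU and CAL27/OXA, or 14.5, 11.3 and 19.3 CPM. CAL27/5FU was lowest and CAL27/OXA highest. The ratio was -0.36 (-0.55 to -0.18) in CAL27/5FU and 0.41 (0.26 to 0.57) in CAL27/OXA. Between the resistant lines it was 0.77 (0.61 to 0.94), wholly past 1.5-fold, while the 10 nearest tested genes had a median of 0.01 in that comparison. The endonuclease pair ERCC1 and ERCC4 had 2257, 2323 and 3540 counts and 639, 862 and 875 counts. ERCC1 had ratios of 0.03 in CAL27/5FU and 0.46 in CAL27/OXA, and ERCC4 had 0.42 and 0.26. Of the exonic bases of ERCC1, 28.6% are shared with CD3EAP on the opposite strand, which had 266, 346 and 408 counts.

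The damage sensors differed among themselves. DDB1 had 13846, 11337 and 12378 counts and ratios of -0.30 in CAL27/5FU and -0.35 in CAL27/OXA. Its partner DDB2, which binds ultraviolet lesions directly, had 1759, 1146 and 1883 counts and ratios of -0.62 and -0.09, the latter positive under total counts and with FPKM values. XPC, the sensor of distorted helices, had 668, 887 and 970 counts and ratios of 0.40 and 0.35. Of the helicases that open the DNA around a lesion, ERCC2 had 1302, 2005 and 1788 counts and ratios of 0.62 and 0.27, and ERCC3 had ratios of 0.04 and 0.13. ERCC5, the second endonuclease, was the lowest member per length with 0.873, 0.676 and 0.828 FPKM from 149, 103 and 147 counts. The annotation shares 63.2% of its exonic bases with the readthrough gene BIVM-ERCC5, listed at 0 counts in all 3 libraries, so the level of ERCC5 is uncertain. Over the 11 genes, the median was 0.03 in CAL27/5FU and 0.26 in CAL27/OXA.

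Mismatch repair genes had ratios to CAL27 above 0 in all but 1 case. MSH6, a subunit of the factor that recognizes mismatches and small loops, had 4680, 6206 and 8129 counts in CAL27, CAL27/5FU and CAL27/OXA, or 120.1, 158.6 and 183.0 CPM. CAL27 was lowest and CAL27/OXA highest, and the ratios were 0.40 (0.35 to 0.46) and 0.61 (0.56 to 0.66). MSH3, which recognizes larger loops, had 1093, 1124 and 1578 counts and ratios of 0.03 (-0.088 to 0.155) and 0.34. EXO1, the exonuclease that removes the faulty strand, had 1574, 1593 and 2143 counts and ratios of 0.01 (-0.091 to 0.112) and 0.26. PMS2, a subunit of the nicking complex, had 1173, 1472 and 1300 counts and ratios of 0.32 and -0.04, the latter positive under total counts and with FPKM values. PMS2 has near-identical pseudogene copies, so its counts are uncertain. The medians of the 4 genes were 0.18 and 0.30.

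E2F words were found in the promoters of 11 of the 40 members with a window. In RefSeq promoter windows of 300 bases, 250 before the start and 50 after it, words of the E2F site (TTTCGCGC, TTTGGCGC, TTTCCCGC or TTTGCCGC on either strand) occurred in 12 of 54 member windows, or 22.2%. Among all 35116 windows of the table the share was 3.3%. Windows of the same gene can overlap, as those of PMS2 do, and the windows were not matched for base composition. E2F factors drive genes at the entry into S phase. All 4 mismatch repair genes had such a word in at least 1 window, as did 3 of the 9 Fanconi genes with a window, 1 of 7 recombination genes and 1 of 11 nucleotide excision genes, beside UNG and REV3L. The CCAAT box (CCAAT, either strand) was in 35.2% of member windows and in 34.6% of all windows, and the CHR element (TTTGAA or TTCGAA, either strand) in 11.1% and 16.4%. A match is a run of letters and not a measured binding site. Windows of MSH6 and EXO1 are shown as examples, because in each the E2F word, TTTCCCGC or TTTCGCGC in capitals, lies just past the RefSeq start. The further RefSeq windows of these genes, built on other starts, held no E2F word. GENCODE starts MSH6 and EXO1 87615 and 237 bases further upstream. The other capitals in MSH6 mark a CCAAT box, read as ATTGG.
MSH6 (chr2:47782895-47783164, plus strand): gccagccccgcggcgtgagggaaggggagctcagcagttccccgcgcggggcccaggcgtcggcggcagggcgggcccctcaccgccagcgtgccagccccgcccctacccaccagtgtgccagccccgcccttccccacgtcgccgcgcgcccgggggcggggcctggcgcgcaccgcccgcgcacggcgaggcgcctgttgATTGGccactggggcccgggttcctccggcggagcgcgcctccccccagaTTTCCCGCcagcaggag
EXO1 (chr1:241847954-241848223, plus strand): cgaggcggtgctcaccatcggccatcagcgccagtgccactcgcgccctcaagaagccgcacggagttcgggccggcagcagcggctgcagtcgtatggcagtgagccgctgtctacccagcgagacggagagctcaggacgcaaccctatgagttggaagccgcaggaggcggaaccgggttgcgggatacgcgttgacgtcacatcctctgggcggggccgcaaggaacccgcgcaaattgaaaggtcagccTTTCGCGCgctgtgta

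Among the translesion genes, REV3L was set apart from the other two. REV3L, the catalytic subunit of polymerase zeta, had 1534, 2507 and 2592 counts in CAL27, CAL27/5FU and CAL27/OXA, or 39.4, 64.1 and 58.4 CPM. CAL27 was low and the resistant lines were close. The ratios were 0.70 (0.61 to 0.79) and 0.57 (0.48 to 0.66), and the 10 nearest tested genes on chromosome 6 had medians of 0.45 and 0.36. REV1, which recruits the other translesion polymerases, had 2913, 2426 and 3427 counts and ratios of -0.27 and 0.04. POLH, the polymerase that copies past platinum and ultraviolet lesions, had 1071, 921 and 1210 counts and ratios of -0.22 and -0.01. The medians of the 3 genes were -0.22 and 0.04.

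For all 43 members, the median of the 10 nearest tested genes was set beside the ratio of the member itself. In CAL27/5FU, these medians ran from -1.003 around MBD4 to 0.45 around REV3L, and that of UNG was -0.55 while UNG itself had a ratio of 0.17. In CAL27/OXA they ran from -1.13 around FANCA to 0.70 around ERCC5. In CAL27/OXA against CAL27/5FU, the lowest was again that of FANCA at -1.19 and the highest that of MBD4 at 1.06, and the other 41 lay between -0.37 and 0.27. MBD4 and FANCA were thus the 2 members with the most extreme ratio and the most extreme neighbourhood at once in that comparison.

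**Figure D4:**
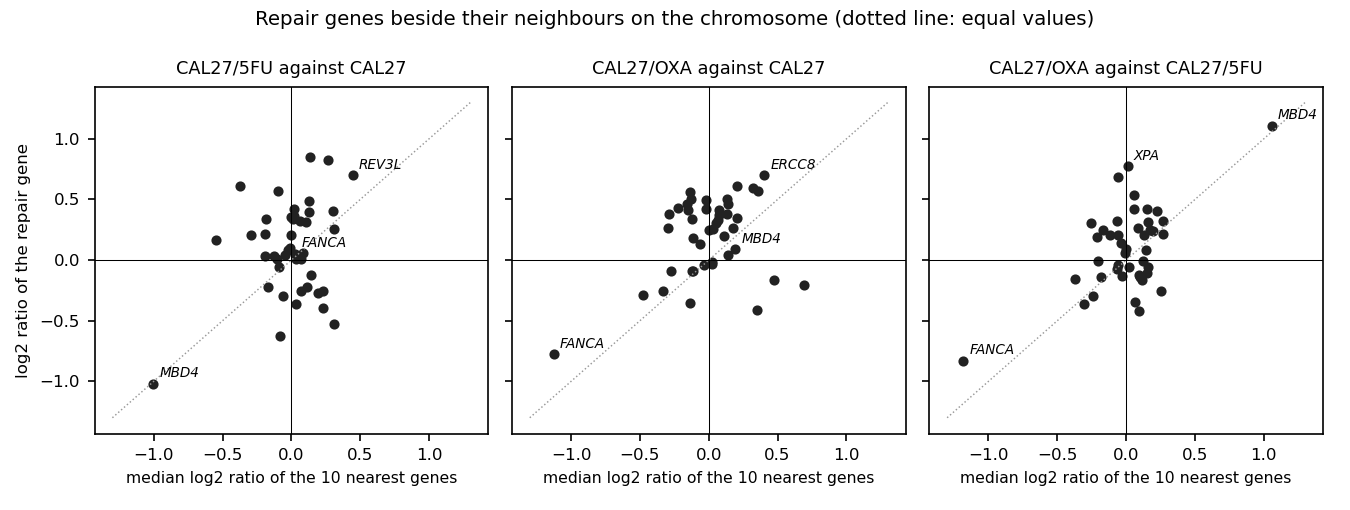
Log2 ratio of each repair gene against the median log2 ratio of its 10 nearest tested genes on the same chromosome, for the 3 comparisons, with a dotted line at equal values; each point is 1 of the 43 genes. MBD4 lies near the line at -1.02 and -1.003 in the left panel, FANCA at -0.78 and -1.13 in the middle panel, and XPA at 0.77 in the right panel stands above a neighbourhood at 0.01.

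A further 71 repair genes, listed beside the members as other subunits and partners of the same routes, were set beside the 43. In CAL27/5FU, 0 were more than 2-fold higher and 1 was lower, beside 8.46% and 6.72% of all tested genes. In CAL27/OXA 1 was higher and 1 was lower, beside 6.54% and 9.28%. Between the resistant lines 2 were higher and 0 were lower, beside 4.18% and 8.38%. Their medians were 0.06, 0.12 and 0.13 in these comparisons. By route, some medians were close to those of the members and others differed. Those of the other nucleotide excision, base excision, Fanconi and translesion genes in CAL27/5FU were 0.03, 0.08, 0.24 and 0.14. The members had 0.03, 0.01, 0.13 and -0.22. In CAL27/OXA they were 0.09, 0.08, 0.16 and 0.19, beside 0.26, 0.03, 0.36 and 0.04 for the members. Of the 14 other recombination genes, 7 were above 0 in CAL27/5FU, with a median of 0.03 beside 0.36 for the 7 members, and 10 in CAL27/OXA, with a median of 0.09 beside 0.49. Of the 9 other mismatch repair genes, 4 were above 0 in CAL27/5FU, with a median of -0.06 beside 0.18 for the 4 members, and 8 in CAL27/OXA, with a median of 0.38 beside 0.30. POLQ, the polymerase of microhomology-mediated end joining, had 2030, 831 and 2345 counts in CAL27, CAL27/5FU and CAL27/OXA. It fell by 1.29 on the log2 scale in CAL27/5FU against CAL27 (interval -1.41 to -1.18), and was 1.31 in CAL27/OXA against CAL27/5FU. POLQ lies on chromosome 3 from 121431427 to 121546641, and its 10 nearest tested genes had a median of -0.82 in CAL27/5FU. GEN1, a resolvase of recombination junctions, had 1965, 1697 and 1098 counts and a ratio of -1.03 (-1.14 to -0.92) in CAL27/OXA, where its 10 nearest genes had a median of -0.72.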

How the data were processed

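RNA-seq counts of 1 library each of CAL27, CAL27/5FU and CAL27/OXA cells were analysed. The repair genes and the lists were chosen with earlier results of these data known. Per the labels, 1 μg of total RNA was used with a NEBNext Ultra kit, and the submitters' processing notes name CASAVA 1.8, HISAT2 2.0.5 and GRCh38. The counting tool, annotation and strandedness are not given in the sources used here. The authors deposited raw counts per gene symbol and FPKM values. In 14367 of 14367 genes compared, the 3 libraries gave the same gene length from count, FPKM and total (within 0.1%), so FPKM was scaled by totals alone. In each table, 3 more per-sample columns match no sample label and were left aside.

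TMM factors (edgeR 4.0.16, R 4.3.3) set the library sizes. A prior count of 2 entered each log2 ratio, and 13676 genes averaging 10 or more counts were kept. Depth was 37297713 to 43455488 counts per library, and exact 95% intervals (Clopper-Pearson) were taken for each ratio from its 2 counts, for counting error only. The scripts were tested on simulated data. Genes past 2-fold, the fold limit of the study, were called higher or lower, without the adjusted p-value that the study also required. The genes named by rule are those past 2-fold, those with a whole interval past 1.5-fold and the highest of each repair group. Of these, APEX1, DDB1, RAD51C and REV1 are given with counts and ratios but without intervals. Promoters printed, facing genes and shared exons were chosen after values were seen. All other members have at least 1 value in the text. Positions are from GENCODE 29 (GRCh38), and neighbours are the 5 nearest of 13418 tested genes with a position on each side. Alternatives were the size factors of DESeq2 1.42.0, the upper quartile, total counts, filters of 1 count in any library and a mean of 50, prior counts of 0.5 and 5, FPKM values with pseudocounts of 1 and 0.1, and other limits for a call. The values of 1 further repair gene that was counted among the others are not reported here.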

Additional observations from a re-analysis of the deposited data

Results flagged for a closer look

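For 6 of the 43 repair genes, the ratios to CAL27 in the 2 resistant lines lay on opposite sides of 0 with their whole counting intervals. The share of all tested genes that meet this rule was not counted, so the 6 cannot be set against it. In CAL27/OXA, the intervals of MBD4 (0.010 to 0.172) and BRCA1 (-0.166 to -0.006) came close to 0. The difference between the lines was not tested, since 1 library of each was used, and both ratios share the CAL27 library. MBD4 had -1.02 in CAL27/5FU and 0.09 in CAL27/OXA. FANCI had -0.26 and 0.43, XPA had -0.36 and 0.41, and FANCC had -0.22 and 0.18. TDG had 0.26 in CAL27/5FU and -0.16 in CAL27/OXA, and BRCA1 had 0.21 and -0.09. In 3 of the 9 alternatives, total counts and both kinds of FPKM values, the ratio of BRCA1 in CAL27/OXA was positive, whereas the other 5 genes kept both signs in all 9.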

How the results depend on the processing

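No paired analysis was possible because 1 labelled library of each line was used and no test was made, and leaving out a library was not possible for the same reason. The single call in CAL27/5FU against CAL27 did not hold in every setting: 0 members were past 2-fold with the upper quartile, with either FPKM pseudocount and with the whole interval past 2-fold, and by total counts the 1 member was BRCA2 at 1.02 in place of MBD4. The call of MBD4 in CAL27/OXA against CAL27/5FU held in all settings. At 1.5-fold, 6, 4 and 4 of the 43 members were past the limit in CAL27/5FU, CAL27/OXA and between the resistant lines. Of the 71 other repair genes, 3, 9 and 7 were. The shares of all tested genes past it were 29.3%, 31.1% and 25.3%.

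Medians moved with scaling by the library totals. For all members, nucleotide excision, base excision, mismatch, Fanconi, recombination and translesion genes, total counts gave 0.25, 0.20, 0.18, 0.35, 0.30, 0.53 and -0.054 in CAL27/5FU and 0.40, 0.40, 0.16, 0.43, 0.49, 0.63 and 0.18 in CAL27/OXA. FPKM with a pseudocount of 0.1 gave 0.25, 0.20, 0.18, 0.34, 0.30, 0.52 and -0.052 and 0.40, 0.38, 0.16, 0.43, 0.49, 0.62 and 0.18. FPKM with a pseudocount of 1 gave 0.23, 0.20, 0.18, 0.30, 0.25 and -0.04 in CAL27/5FU for the same groups without recombination, and 0.38, 0.15 and 0.17 in CAL27/OXA for all members, base excision and translesion genes. The share of higher genes among all called genes in CAL27/5FU was 65.6% with FPKM and a pseudocount of 0.1, beside 55.7%. Signs of single members held in all 9 alternatives for 41 of 43 in CAL27/5FU, 37 in CAL27/OXA and 43 between the resistant lines. Among these alternatives, the filters and prior counts could hardly move the ratio of a member, and FPKM values repeat the scaling by totals.

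All tested genes past 2-fold numbered 2076, 2163 and 1717 in the 3 comparisons. The numbers were 3454, 3273 and 2842 without the filter, 814, 849 and 602 with FPKM and a pseudocount of 1, 4005, 4255 and 3461 at 1.5-fold, and 1342, 1390 and 1028 with the whole interval past 2-fold. Of the other repair genes, 2 were past 2-fold in CAL27/OXA and 2 between the resistant lines. This became 1 in CAL27/OXA by total counts and with either FPKM pseudocount, 1 between the resistant lines with a pseudocount of 1, and 0 and 1 with the whole interval past 2-fold. In CAL27/5FU, their 1 call became 0 with a pseudocount of 1. The intervals cover counting error, and the spread between cultures is unknown here.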
